A study of Homo sapiens with 6 samples.

Results

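The genes described here are the kinesins, dyneins and dynactins measured by mRNA sequencing after siRNA silencing of SETD5, a SET-domain gene whose product acts on chromatin, in the human liver cancer line Huh7. Members were taken by symbol, as KIF or KLC followed by a digit, KIFC, DYNC, DYNL, DNAH or DCTN. Of 67 matching symbols in the table, 61 had a mean of at least 1 CPM (counts scaled to library size) and are members, out of 12865 genes at that level. The other 6, KLC3, DNAH2, DNAH5, DNAH12, DNAH17 and KIF4B, averaged 0.511 to 0.858 CPM and were not tested. Just inside the limit were DNAH11 at 1.13 CPM, KIF5A at 1.47 CPM and KIF9-AS1 at 1.52 CPM. KIF9-AS1 is an antisense RNA and no motor, which leaves 60 motor and dynactin genes. Motors of mitosis and of transport were kept apart.

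The samples were 3 SETD5 knockdown and 3 control libraries of Huh7 cells, all grown in the same serum-supplemented medium. The knockdown cells were transfected with siRNA against SETD5 and the control label does not say what those cells received. The labels state neither the dose, the time after transfection and the number of siRNAs nor whether the replicates were separate cultures. P-values therefore describe the spread among these 6 libraries, and that spread may be purely technical. SETD5 was 136, 140.4 and 138 CPM in the knockdown libraries, against 212, 209.6 and 202 CPM in the control libraries, so that the knockdown mean was 0.664 times the control mean and the groups did not overlap (adjusted p = 1.15e-17). Recovered depth was 14038447 to 17095417 reads per library, and 3 reads corresponded to 0.176 to 0.214 CPM. Hepatocyte markers were present in all libraries, with 12 of 12 listed genes tested. After knockdown 3 were higher (25%) and 8 lower (66.7%), beside 25.7% and 26.5% of all tested genes. The largest of these changes were in FGA, at 1.77 times the control mean, TTR, at 0.62 times, and APOH, at 0.65 times.

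Kinesins and dyneins are motor proteins that use ATP to move along microtubules. Most kinesins walk towards the plus end and carry organelles, vesicles or, in dividing cells, chromosomes and spindle microtubules, whereas cytoplasmic dynein walks towards the minus end and needs dynactin, a multi-subunit activator built around a short filament of actin-related protein. Axonemal dyneins drive the beating of cilia and flagella. In a hepatocyte these motors move endosomes, lipoprotein vesicles and mitochondria between the cell centre and the membrane, and in a dividing tumour cell line the mitotic kinesins are abundant.

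Of the 61 members, 25 rose and 9 fell after SETD5 knockdown, and 27 were not called (limma, adjusted p under 0.05 over all tested genes). That is 41% of the members higher and 14.8% lower, beside 25.7% higher and 26.5% lower over all 12865 tested genes. The median log2 fold change of the members was 0.083, beside -0.0012 over all tested genes. The knockdown and control libraries did not overlap for 24 members that were higher and 10 that were lower, where 28.6% and 28.8% of all tested genes did so. Most of the changes were small: the median absolute log2 fold change was 0.13 for the members and 0.16 for all tested genes. Of the 34 called members, 17 changed by less than 1.2-fold, beside 3182 of the 6706 called among all tested genes. All log2 fold changes are differences of log2(CPM + 1), so that those of weakly expressed genes come out too small.

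**Figure D1:**
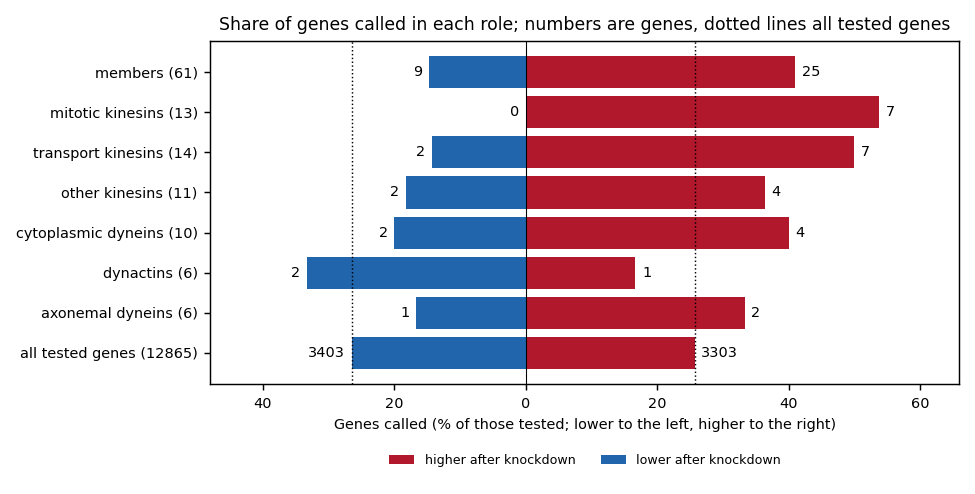
Share of tested genes that were higher (red, right) or lower (blue, left) after SETD5 knockdown, in percent, for all members, for each role and for all tested genes; numbers at the bars are genes and dotted lines mark the shares of all tested genes. Mitotic kinesins had 7 of 13 higher and 0 lower, and dynactins had 1 of 6 higher and 2 lower.

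The roles differed in their counts, which were not tested against each other. Of 13 mitotic kinesins 7 rose and 0 fell. Transport kinesins had 7 of 14 higher and 2 lower, among them KIF3C and KIF5C, with the 2 largest absolute changes of all members. Of 11 other kinesins 4 rose and 2 fell, and of 10 cytoplasmic dynein genes 4 rose and 2 fell. Dynactin genes had 1 of 6 higher and 2 lower, and axonemal dyneins 2 of 6 higher and 1 lower.

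**Figure D2:**
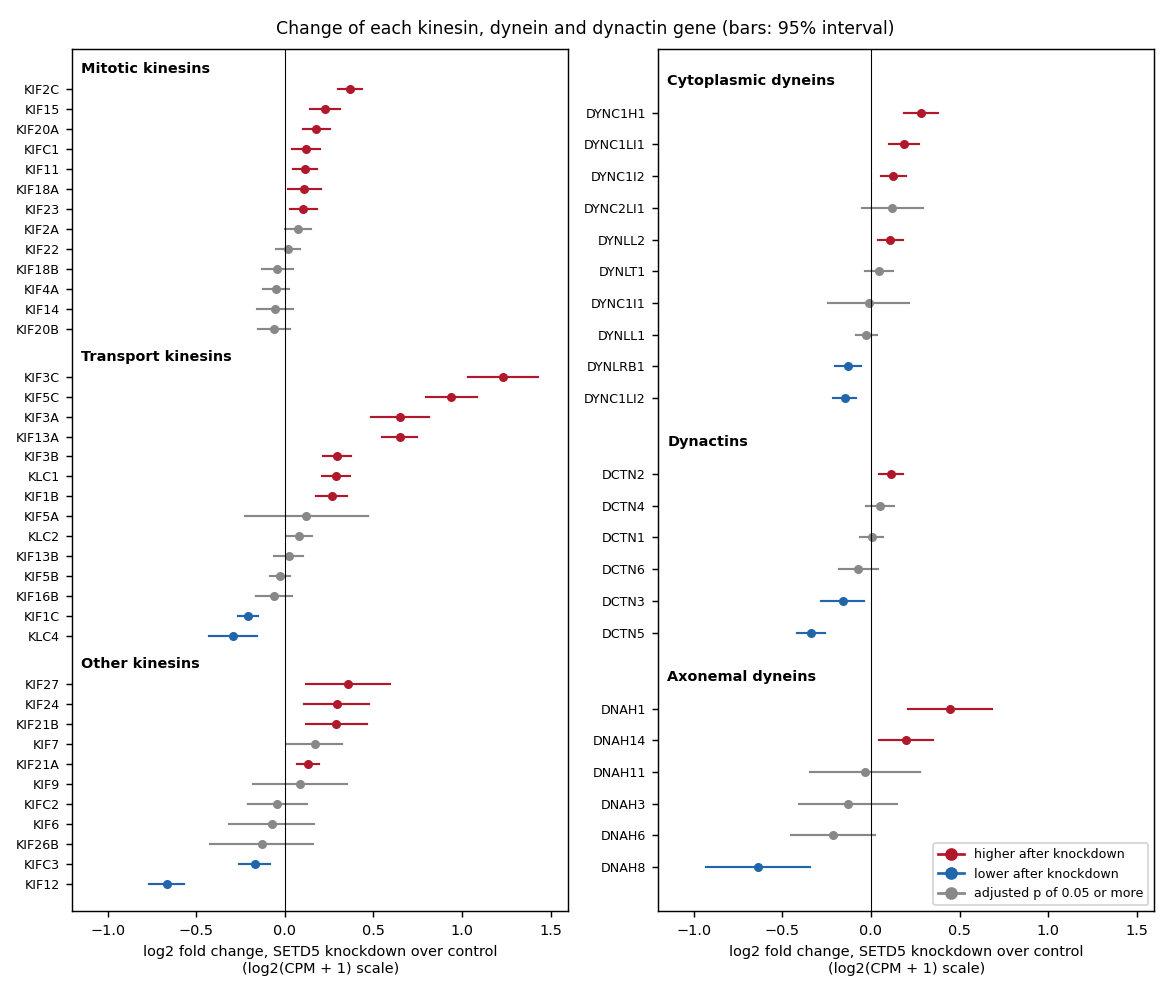
The log2 fold change, SETD5 knockdown over control, of the 60 motor and dynactin genes, in 6 roles and sorted within each; points are estimates, bars 95% intervals, red and blue genes higher and lower at an adjusted p under 0.05, and grey genes not called. KIF3C at 1.23 and KIF5C at 0.94 lie farthest to the right, and KIF12 at -0.67 and DNAH8 at -0.64 farthest to the left.

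Kinesin-2, the motor of the KIF3 subunits, was higher in each of its 3 measured heavy chains. KIF3A pairs with KIF3B or KIF3C, and the KIF3A/KIF3B motor carries cargo from the base to the tip of the primary cilium. KIF3C was 11.2, 11.8 and 12.02 CPM in the knockdown libraries, against 4.22, 4.32 and 4.64 CPM in the control libraries (2.66 times the control mean, log2 fold change 1.23 ± 0.096 SE, adjusted p = 2.77e-13). Its libraries lie far apart by group, and it was the member with the largest change and the single member among the 84 genes, 0.653% of those tested, that rose at least 2-fold. KIF3A was 17.4, 17.6 and 16.0 CPM after knockdown and 11.2, 10.7 and 9.50 CPM in controls (1.62 times, log2 fold change 0.65 ± 0.081 SE, adjusted p = 1.71e-08). KIF3B, the most abundant of the 3 in CPM, was 116, 125 and 119.6 CPM after knockdown, against 92.3, 98.7 and 103 CPM in controls (1.23 times, 0.29 ± 0.039 SE, adjusted p = 6.66e-08). The groups did not overlap for KIF3A or KIF3B either.

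KIFAP3, the non-motor subunit that binds the KIF3 heavy chains, did not move with them: it was 11.9, 13.0 and 13.8 CPM in the knockdown libraries and 13.0, 13.0 and 12.9 CPM in controls (log2 fold change -0.011 ± 0.080 SE, adjusted p = 0.916). It falls outside the rule for named genes and is given because it is the fixed partner of KIF3A and KIF3B. Because KIF3C rose more than KIF3B, the make-up of the KIF3 pool differed. Per transcript length, KIF3C was 8.89 ± 0.29% of the summed KIF3 level after knockdown and 4.44 ± 0.10% in controls (SD, n = 3 each). KIF3B was 80.2 ± 0.38% of that sum after knockdown, against 86.6 ± 1.06% in controls. The summed level of the 3 heavy chains was 144.6 to 154 CPM after knockdown and 107.7 to 117 CPM in controls.

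Kinesin-1 is built from a pair of KIF5 heavy chains and a pair of KLC light chains that hold the cargo. KIF5C, known mainly from neurons, was 24.8, 24.4 and 23.4 CPM in the knockdown libraries and 11.8, 12.9 and 11.8 CPM in the control libraries (1.99 times, log2 fold change 0.94 ± 0.071 SE, adjusted p = 1.27e-13). KIF5B, the heavy chain of most tissues, was 269.8, 269 and 268.5 CPM after knockdown, against 276, 273 and 274 CPM in controls. Every knockdown library was below every control library for KIF5B, yet the knockdown mean was 0.981 times the control mean and the difference did not pass the test (log2 fold change -0.027 ± 0.028 SE, adjusted p = 0.433). KIF5A, the third heavy chain, lay between 0.77 and 2.15 CPM with overlapping groups. Of the neuronal markers listed, 1 of 8 was in the table, SNAP25, at 19.1 to 21.7 CPM after knockdown and 18.6 to 19.7 CPM in controls, and it was not called (adjusted p = 0.177).

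KIF5C therefore took a larger share of kinesin-1 in a pool whose summed level differed little. Per transcript length it made up 7.04 ± 0.19% of the summed KIF5 level after knockdown and 3.60 ± 0.21% in controls, and KIF5B made up 92.4 ± 0.11% after knockdown and 95.9 ± 0.073% in controls (SD, n = 3 each). The summed KIF5 level was 294 to 296 CPM after knockdown and 287 to 289.6 CPM in controls. Among the light chains, KLC1 was 95.6, 95.4 and 99.0 CPM in knockdown libraries against 81.3, 79.8 and 75.9 CPM in controls (0.29 ± 0.038 SE, adjusted p = 6.95e-08). KLC4 went the other way, with 21.1, 21.7 and 24.0 CPM after knockdown and 27.8, 25.1 and 29.6 CPM in controls (-0.29 ± 0.066 SE, adjusted p = 3.44e-04). KLC2, the light chain with the highest level in CPM, was 115, 113 and 114 CPM after knockdown, against 107, 104 and 112 CPM in controls, and narrowly missed the threshold (0.083 ± 0.036 SE, adjusted p = 0.0520).

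**Figure D3:**
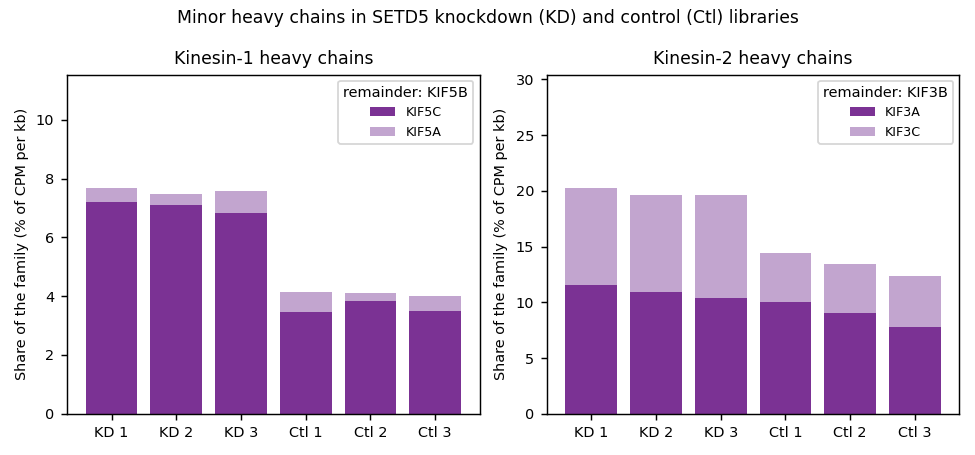
Share of KIF5C and KIF5A among the kinesin-1 heavy chains (left) and of KIF3A and KIF3C among the kinesin-2 heavy chains (right), in percent of the summed CPM per kb of transcript, in each SETD5 knockdown library (KD) and each control library (Ctl); the part of each total not drawn is KIF5B or KIF3B. KIF5C stands at 6.83 to 7.20% in the knockdown libraries and at 3.47 to 3.84% in the controls.

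Kinesin-3 motors carry vesicles over long distances. KIF13A, which moves endosomes and melanosome cargo, was 52.3, 55.2 and 56.0 CPM in the knockdown libraries and 33.6, 34.5 and 35.2 CPM in the control libraries (1.58 times, log2 fold change 0.65 ± 0.049 SE, adjusted p = 8.87e-14). Its close relative KIF13B lay at 90.7 to 101.3 CPM after knockdown and 92.3 to 97.0 CPM in controls, with overlapping groups and no call (adjusted p = 0.674). KIF1B, which carries mitochondria and synaptic vesicle precursors, was 113, 119 and 102 CPM after knockdown, against 92.9, 96.2 and 88.0 CPM in controls (0.26 ± 0.043 SE, adjusted p = 2.75e-06). KIF1C had the highest level in CPM of all members and fell: 404, 423 and 408 CPM after knockdown and 483, 463 and 481 CPM in controls (-0.21 ± 0.028 SE, adjusted p = 6.83e-08). KIF16B, a motor of early endosomes, was not called (-0.060 ± 0.051 SE, adjusted p = 0.331).

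**Figure D4:**
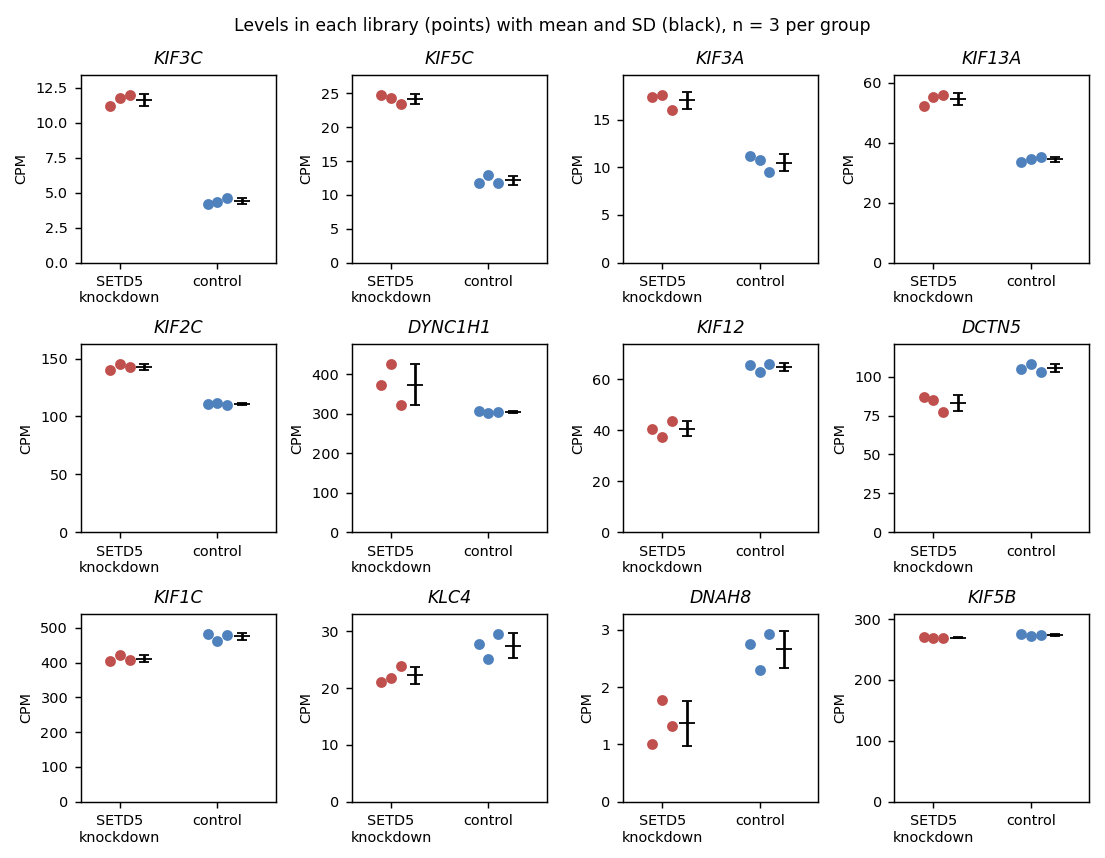
CPM of 12 members in each SETD5 knockdown library (red, left) and control library (blue, right), with the group mean and SD in black (n = 3 each); every axis starts at 0. The groups are separate in all 12, by a wide margin for KIF3C and KIF5C and with a knockdown mean of 0.981 times the control mean for KIF5B, and the knockdown libraries of DYNC1H1 are spread from 322 to 426 CPM.

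Ratios within pairs of related genes use each library as its own reference and do not depend on its scaling. Of 11 pairs chosen by name, 9 had both genes among the members, and in 8 of these the knockdown and control libraries did not overlap. Of the levels of all tested genes, 57.3% did not overlap between the groups, so that separate groups are common in these data. The log2 ratio of KIF5B to KIF5C was 3.48 ± 0.040 after knockdown and 4.50 ± 0.082 in controls, and that of KIF13A to KIF13B was -0.81 ± 0.10 after knockdown and -1.45 ± 0.017 in controls (SD, n = 3 each). The log2 ratio of KIF1B to KIF1C was -1.89 ± 0.091 after knockdown, against -2.37 ± 0.091 in controls. Each of the 8 pairs had an exact two-sided permutation p of 0.1, the smallest that 3 against 3 libraries can give, and 0.1125 after adjustment over the 9 pairs. The ratio of the dynein intermediate chains DYNC1I1 and DYNC1I2 overlapped between groups (exact permutation p = 0.7).

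The mitotic kinesins build the spindle, move chromosomes and complete cell division. KIF2C, which takes apart microtubule ends at the kinetochore, rose most among them: 140.0, 145 and 143 CPM in the knockdown libraries and 111, 111 and 109.7 CPM in the control libraries (1.29 times, log2 fold change 0.37 ± 0.033 SE, adjusted p = 1.54e-11). KIF15, which helps keep the spindle poles apart, was 66.6, 68.6 and 68.6 CPM after knockdown, against 56.1, 59.9 and 57.6 CPM in controls (0.23 ± 0.042 SE, adjusted p = 2.24e-05). KIF20A, a motor of cytokinesis, was 120.1, 126 and 129 CPM after knockdown and 115, 110.3 and 106 CPM in controls (0.18 ± 0.037 SE, adjusted p = 1.17e-04). The groups did not overlap in any of these. The other 4 that rose did so by 0.10 to 0.12 on the log2 scale. These were KIFC1, a minus-end motor that focuses spindle poles, KIF11, the motor that separates the poles, KIF18A, which limits chromosome movement at the metaphase plate, and KIF23, a part of centralspindlin.

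KIF11 was 126, 126 and 123 CPM after knockdown and 114, 114.5 and 117 CPM in controls (0.11 ± 0.034 SE, adjusted p = 0.00510). KIF23 was 132, 131 and 122.5 CPM after knockdown and 114, 126.5 and 118 CPM in controls, with overlapping groups (0.10 ± 0.038 SE, adjusted p = 0.0204), and its call was lost without knockdown library 1 or 2 or without control library 1 or 3. KIF18A (adjusted p = 0.0409) overlapped too and lost its call without knockdown library 2 or 3 or control library 1 or 3, and KIFC1 (adjusted p = 0.0121) overlapped and lost its call without knockdown library 3 or control library 1. Over all alternatives their adjusted p reached 0.162 for KIF23, 0.208 for KIF18A and 0.0843 for KIFC1, and without control library 1 the count of mitotic kinesins that rose was 4. The 6 mitotic kinesins that were not called, KIF2A, KIF22, KIF18B, KIF4A, KIF14 and KIF20B, had log2 fold changes of -0.059 to 0.075, and without control library 3 KIF14 passed the test as lower (adjusted p = 0.0418). KIF4A has a near-identical copy, KIF4B, listed at 0.36 to 0.92 CPM, and reads could have been divided between them.

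Part of their binding partners and of the general markers of cycling cells changed as well, in both directions. Of 17 listed spindle and cytokinesis partners that are not members, 8 rose, 2 fell and 7 were not called, with a median log2 fold change of 0.067, where 25.7% of all tested genes rose and 26.5% fell. CDK1, the mitotic kinase, was 203, 210.0 and 205 CPM after knockdown and 173, 183 and 169.8 CPM in controls, CIT, a kinase of the midbody, rose (0.22, adjusted p = 2.86e-04), and HMMR, a spindle-associated protein, fell (-0.31, adjusted p = 3.42e-06). CENPE, a kinetochore kinesin whose symbol the membership rule does not take, rose by a log2 fold change of 0.14 ± 0.038 SE (adjusted p = 0.00211). Of 20 proliferation markers, some of them also in the partner list, 8 rose, 1 fell and 11 were not called. Their summed level was 4376 to 4552 CPM after knockdown and 4033 to 4179 CPM in controls. CENPF, TOP2A and UBE2C changed most among the called markers, with log2 fold changes of 0.43, 0.335 and 0.327. CCNA2 was the 1 that fell (-0.213). MKI67, a standard proliferation marker, was not called (-0.078 ± 0.035 SE, adjusted p = 0.0621). The part of the proliferation markers in the result for the mitotic kinesins was not tested.

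Most mitotic kinesins held a pair of short promoter words, as did most of the proliferation markers with a promoter. The pair is shown in 3 promoters that hold it, beside that of KIF2C, which does not. In RefSeq promoters on GRCh38.p14, from 250 bases before to 50 after the start of each gene, the CHR words TTTGAA or TTCGAA, which mark promoters of genes expressed in late cell cycle, were searched on both strands together with CCAAT, the NF-Y box. CCAAT and CHR do not share letters in the promoters below. The promoters of KIF11 (chr10:92592880-92593179, plus strand), KIF23 (chr15:69414099-69414398, plus strand), KIF4A (chrX:70289854-70290153, plus strand) and KIF2C (chr1:44739587-44739886, plus strand) read as follows, 5′ to 3′, with CCAAT (or ATTGG) and CHR words in capitals.
KIF11: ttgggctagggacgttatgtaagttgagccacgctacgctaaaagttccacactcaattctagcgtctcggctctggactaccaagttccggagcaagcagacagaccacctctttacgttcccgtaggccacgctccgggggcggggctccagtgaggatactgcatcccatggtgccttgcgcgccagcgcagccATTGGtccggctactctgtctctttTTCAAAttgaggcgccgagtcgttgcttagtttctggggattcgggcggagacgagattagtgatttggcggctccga
KIF23: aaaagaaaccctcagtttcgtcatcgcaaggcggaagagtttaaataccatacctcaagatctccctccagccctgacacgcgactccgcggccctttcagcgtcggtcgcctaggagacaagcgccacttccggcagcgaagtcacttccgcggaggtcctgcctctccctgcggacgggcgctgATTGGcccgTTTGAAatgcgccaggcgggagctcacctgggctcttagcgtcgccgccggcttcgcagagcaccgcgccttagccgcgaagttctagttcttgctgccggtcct
KIF4A: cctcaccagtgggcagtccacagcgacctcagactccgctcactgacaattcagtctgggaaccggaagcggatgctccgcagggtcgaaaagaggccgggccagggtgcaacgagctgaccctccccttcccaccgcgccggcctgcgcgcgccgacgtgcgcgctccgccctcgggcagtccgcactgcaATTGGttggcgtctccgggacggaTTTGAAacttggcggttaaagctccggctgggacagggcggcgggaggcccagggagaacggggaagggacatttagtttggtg
KIF2C: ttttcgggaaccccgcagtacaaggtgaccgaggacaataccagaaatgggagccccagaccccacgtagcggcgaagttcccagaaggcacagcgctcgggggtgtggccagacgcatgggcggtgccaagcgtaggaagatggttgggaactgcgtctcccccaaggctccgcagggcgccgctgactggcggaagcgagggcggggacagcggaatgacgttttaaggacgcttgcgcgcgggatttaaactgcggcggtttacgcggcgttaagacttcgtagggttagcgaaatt
In KIF11, KIF23 and KIF4A the CCAAT box, read as ATTGG, begins at positions -53, -64 and -58 from the start of the gene, and the CHR word follows at -28, -55 and -34. The promoter of KIF2C holds neither word in this window.

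Counting the first promoter listed for each gene, 10 of 13 mitotic kinesins held a CHR word (76.9%), beside 11.3% of 10177 tested genes with a promoter and 5.56% of the 36 other members. CCAAT was in 76.9% of mitotic kinesins and 37% of all, and both words were in 69.2% of mitotic kinesins and 4.84% of all. The 15 proliferation markers with a promoter were much alike in this, with a CHR word in 73.3%, CCAAT in 86.7% and both in 66.7%, so the pair of words is not particular to the motors. Only the presence of the words was counted, not their order or spacing. Of the 7 mitotic kinesins that rose, KIF11, KIF23, KIF18A and KIFC1 held both words, KIF15 held CHR alone, KIF20A held CCAAT alone and KIF2C neither. KIF4A, KIF14, KIF18B, KIF20B and KIF22, which were not called, held both as well. The presence of the words thus did not separate called from uncalled mitotic kinesins. A promoter was found for 49 of the 61 members.

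Among the other kinesins, KIF12, which is known from kidney and liver epithelium, fell clearly. It was 40.6, 37.5 and 43.4 CPM in the knockdown libraries, against 65.6, 62.8 and 65.9 CPM in the control libraries (0.625 times, log2 fold change -0.67 ± 0.049 SE, adjusted p = 5.34e-14). The groups were well apart. Its log2 fold change was the lowest of all members on the log2(CPM + 1) scale, although as a ratio of mean CPM that of DNAH8, at 0.513, was lower, and it was the single member that fell by more than 1.2-fold in a test against that size. KIFC3, a minus-end motor at cell junctions, was 67.2, 64.7 and 68.2 CPM after knockdown and 78.9, 71.2 and 75.7 CPM in controls (-0.17 ± 0.042 SE, adjusted p = 9.50e-04).

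KIF21A, which restrains microtubule growth at the cell cortex, was 230.4, 234 and 232 CPM after knockdown and 216, 217 and 202 CPM in controls (0.13 ± 0.031 SE, adjusted p = 4.74e-04), and its relative KIF21B rose as well, with 12.8, 12.3 and 11.7 CPM after knockdown, against 9.90, 10.1 and 9.58 CPM in controls (0.29 ± 0.084 SE, adjusted p = 0.00369). KIF24, which takes part in the control of cilium formation, was 11.1, 14.7 and 12.5 CPM after knockdown and 10.2, 10.7 and 9.65 CPM in controls (0.29 ± 0.090 SE, adjusted p = 0.00673). KIF27, a relative of the Hedgehog regulator KIF7, was 4.94, 4.79 and 6.04 CPM after knockdown, against 3.69, 4.39 and 3.57 CPM in controls (0.36 ± 0.12 SE, adjusted p = 0.0104). Both calls rest in part on 1 knockdown library: without library 2 the adjusted p of KIF24 was 0.0926, and without library 3 that of KIF27 was 0.0928. KIF7, KIF9, KIFC2, KIF6 and KIF26B were not called, with log2 fold changes of -0.13 to 0.17. KIF9 and the antisense RNA KIF9-AS1 overlap on opposite strands. The kit keeps strand, but whether the counting used it is not given, so their levels may share reads. The same limit holds for called members that overlap protein-coding genes on the opposite strand, among them KLC1, KLC4, KIF20A, KIF24, DCTN2 and KIF18A.

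Cytoplasmic dynein-1 consists of a heavy chain with the motor domain, intermediate and light intermediate chains that bind dynactin and cargo adaptors, and several light chains. The heavy chain DYNC1H1 was 372.5, 426 and 322 CPM in the knockdown libraries and 308, 301.5 and 305 CPM in the control libraries (log2 fold change 0.28 ± 0.048 SE, adjusted p = 6.20e-06). The groups did not overlap, but the SD was 52.1 CPM after knockdown and 3.37 CPM in controls, and without the mean-variance trend in the test the adjusted p was 0.0510. Single libraries moved the DYNC1H1 log2 fold change, to 0.18 without knockdown library 2 and 0.38 without knockdown library 3. The knockdown libraries stood in the same order for KIF1B and KIF13B, with library 2 highest and library 3 lowest. That order was not particular to motors: APOB, CENPF and MKI67 showed it too. Other genes, such as KIF21B and TF, did not.

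The light intermediate chains, which link the motor to its adaptors, moved in opposite directions. DYNC1LI1 was 100.6, 97.1 and 108 CPM after knockdown and 85.9, 95.8 and 86.3 CPM in controls (0.19 ± 0.042 SE, adjusted p = 3.08e-04). DYNC1LI2 was 171, 164 and 170.5 CPM after knockdown, against 182, 189 and 188.5 CPM in controls (-0.15 ± 0.032 SE, adjusted p = 1.67e-04). Per transcript length DYNC1LI1 was 52.2 ± 0.97% of the pair after knockdown and 46.3 ± 1.30% in controls (SD, n = 3 each), while the summed level of the pair, 261 to 278 CPM after knockdown and 268 to 285 CPM in controls, overlapped.

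Of the intermediate chains, DYNC1I2 rose, with 123, 127 and 122 CPM after knockdown and 113, 116 and 110.6 CPM in controls (0.13 ± 0.035 SE, adjusted p = 0.00235), and DYNC1I1, known mainly from brain, lay at 5.52 to 6.22 CPM after knockdown and 5.27 to 7.43 CPM in controls (adjusted p = 0.931). The light chains moved little. DYNLL2, an LC8 chain, was 143, 149 and 134 CPM after knockdown, against 132, 131 and 132 CPM in controls (0.11 ± 0.036 SE, adjusted p = 0.00964), a call that was lost without knockdown library 2. DYNLRB1, a roadblock chain, was 119, 123 and 125 CPM after knockdown and 133.5, 129 and 139 CPM in controls (-0.13 ± 0.035 SE, adjusted p = 0.00262), and without the trend its adjusted p was 0.0548. DYNLL1, the main LC8 chain, at 235 to 239 CPM after knockdown and 236 to 248 CPM in controls, and DYNLT1, a Tctex chain, were not called. The annotation lists 7 pseudogenes named after DYNLL1, so its level is uncertain where reads match several copies. DYNC2LI1, the light intermediate chain of the dynein that returns cargo from the cilium tip, was not called either (0.12 ± 0.084 SE, adjusted p = 0.238).

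Dynactin couples dynein to its cargo and makes it processive. Of its 6 DCTN genes, DCTN5, a subunit of the pointed-end cap, fell to 87.0, 85.1 and 77.6 CPM in the knockdown libraries, against 105, 108 and 103 CPM in the control libraries (0.79 times, log2 fold change -0.34 ± 0.040 SE, adjusted p = 6.26e-09). The groups were clearly apart. DCTN2, the shoulder subunit dynamitin, was slightly higher, with 157, 159 and 159 CPM after knockdown and 143, 151 and 145 CPM in controls (0.11 ± 0.033 SE, adjusted p = 0.00373). DCTN3, its partner in the shoulder, was 26.4, 28.7 and 27.2 CPM after knockdown, against 28.8, 31.2 and 32.3 CPM in controls (-0.16 ± 0.059 SE, adjusted p = 0.0224), and its call was lost without knockdown library 1 or 3 or control library 2 or 3, with an adjusted p of up to 0.120. DCTN1, the p150 subunit that binds dynein and microtubules, did not pass the test, at 158 to 161 CPM after knockdown and 155 to 163 CPM in controls (0.0035 ± 0.032 SE, adjusted p = 0.933), and DCTN4 and DCTN6 were not called.

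The subunits of dynactin that are not named DCTN were lower more often than higher. Of 7 listed, 1 rose and 4 fell (57.1% lower, beside 26.5% of all tested genes), with a median log2 fold change of -0.14. ACTR1A, which forms most of the filament, was 87.3, 86.8 and 89.4 CPM after knockdown and 112, 109 and 109 CPM in controls (0.798 times, -0.32 ± 0.036 SE, adjusted p = 1.53e-09). Its paralog ACTR1B was 88.7, 84.0 and 85.3 CPM after knockdown, against 104, 103 and 106 CPM in controls (-0.28 ± 0.037 SE, adjusted p = 7.18e-08). ACTR10, which caps the pointed end together with DCTN5, was 47.1, 50.3 and 50.3 CPM after knockdown and 57.9, 61.7 and 56.6 CPM in controls (-0.25 ± 0.046 SE, adjusted p = 2.30e-05). In each of the 3 actin-related genes every knockdown library was below every control library. The fourth to fall was ACTB, and CAPZA1, a subunit of the barbed-end cap, rose (0.15 ± 0.031 SE, adjusted p = 1.27e-04).

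**Figure D5:**
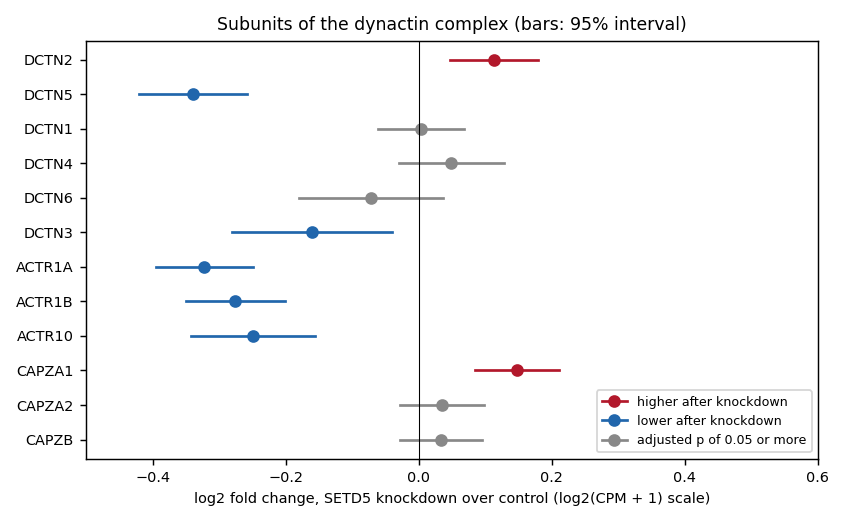
The log2 fold change, SETD5 knockdown over control, of 12 subunits of dynactin, the 6 DCTN genes first and then 6 further subunits; points are estimates, bars 95% intervals, red genes higher, blue genes lower and grey genes not called. DCTN5, ACTR1A, ACTR1B and ACTR10 lie between -0.34 and -0.25, whereas DCTN1 lies at 0.0035.

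Adaptors and regulators are the proteins that bring cargo to the motors. Of 21 tested dynein regulators and adaptors, 10 rose and 5 fell, with a median log2 fold change of 0.12. That is 47.6% higher and 23.8% lower, beside 25.7% and 26.5% of all tested genes. NINL, a centrosomal dynein adaptor, was 68.8, 63.7 and 67.4 CPM after knockdown and 38.2, 38.0 and 38.0 CPM in controls (1.75 times, log2 fold change 0.79, adjusted p = 6.68e-17). TRAK2, which links both motors to mitochondria, rose to 1.40 times the control mean (adjusted p = 1.27e-11), and CCDC64, a relative of BICD, fell to 0.698 times (adjusted p = 6.82e-05). Of 22 tested cargo adaptors of kinesins, 7 rose and 1 fell, with a median of 0.036, so that 31.8% were higher, near the share of all tested genes, and 4.55% lower. MAPK8IP1 and MAPK8IP3, scaffolds that bind kinesin light chains, rose to 1.349 and 1.199 times the control mean, and DENND4C, a Rab exchange factor, to 1.25 times.

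Cilia use kinesin-2 and dynein-2 inside and axonemal dyneins for beating. Of 19 genes of the intraflagellar transport trains that these motors carry, 9 rose and 4 fell (47.4% and 21.1%, beside 25.7% and 26.5% of all tested genes), with a median log2 fold change of 0.20. CLUAP1 and IFT57, train subunits, rose to 1.31 and 1.28 times the control mean, and IFT46, another, fell to 0.747 times. Of the 3 other dynein-2 subunits listed, WDR34 and TCTEX1D2 rose, by log2 fold changes of 0.24 and 0.44, and WDR60 was not called. TCTEX1D2 was measured on only 14 to 38 reads per library, with means of 2.17 CPM after knockdown and 1.38 CPM in controls. Its groups overlapped (adjusted p = 0.0191), whereas those of WDR34 did not (adjusted p = 3.37e-05).

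The axonemal dynein heavy chains were measured at low levels. DNAH8 fell to 1.00, 1.78 and 1.32 CPM in the knockdown libraries, against 2.75, 2.30 and 2.93 CPM in the control libraries, on 16 to 47 reads per library (0.513 times, log2 fold change -0.64 ± 0.14 SE, adjusted p = 3.45e-04). At this low level the DNAH8 log2 fold change depends on the pseudocount, and it was -0.94 with 0.1 in place of 1 and -0.97 with voom. DNAH1 was 7.13, 6.38 and 5.68 CPM after knockdown and 4.86, 3.55 and 4.93 CPM in controls (0.45 ± 0.12 SE, adjusted p = 0.00147). DNAH14, the one with the highest level in CPM, was 19.3, 16.5 and 19.9 CPM after knockdown, against 15.3, 16.5 and 16.2 CPM in controls (0.20 ± 0.075 SE, adjusted p = 0.0261), and its call was lost without knockdown library 1 or 3 or control library 1, with an adjusted p of up to 0.149. DNAH3, DNAH6 and DNAH11 were not called, with log2 fold changes of -0.21 to -0.034. Of 8 tested genes for other parts or assembly factors of the axoneme, 4 rose and 0 fell (50% and 0%, beside 25.7% and 26.5% of all tested genes). CCDC103, which rose, averaged 0.859 CPM in controls and 1.67 CPM after knockdown, so it passed the filter only through the group where it was high. DNAAF2 rose as well, with overlapping groups. Among the genes listed as markers of ciliated cells, 4 of 9 were in the table and 3 were tested. FOXJ1 fell to 0.811 times the control mean, and CAPS was not called (log2 fold change 0.022, adjusted p = 0.910). TUBB4B, a beta tubulin gene that the planned marker list did not hold, fell to 0.880 times. At 1175 to 1371 CPM it is no specific marker of ciliated cells here.

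One sequence feature was followed because an earlier look at these data had picked it out, the word GCACCT in 3′ UTRs. It was searched on the transcript strand in 1 GENCODE 29 transcript per gene, and was present in 12 of 59 members with a 3′ UTR (20.3%), beside 3303 of 11523 tested genes (28.7%). Over all tested genes the holders had a median log2 fold change of -0.036, with 816 higher and 1140 lower, and genes without it 0.014. Among the members, the 12 holders had a median of 0.27, with 8 higher and 1 lower, and the 47 without it 0.019, with 16 higher and 8 lower. The holders among the members had 3′ UTRs with a median length of 4200 bases, beside 520 bases for the members without the word. The holders KIF3C and KIF5C had the largest log2 fold changes of all members, 1.23 and 0.94, and the holders KIF3B and KLC1 had 0.29 each. KIF3A, KIF13A and KIF2C, in whose 3′ UTR no such word was found, lay between them, at 0.65, 0.65 and 0.37. A site of each of the following is shown, 30 bases of the 3′ UTR with the word in capitals. KIF3C, KIF5C, KIF3B and KLC1 are holders that rose, and DCTN5 was the 1 holder that fell.
KIF3C: ttgagctgaaatGCACCTgcagctgggtgc
KIF5C: ccttttagtatgGCACCTgttaaaatgcaa
KIF3B: tcttgcttccatGCACCTcagtaagaagtg
KLC1: cttgtcagagctGCACCTctctgtgaactg
DCTN5: gtgagccagtcaGCACCTacaaagagcttt
DCTN5 held 5 such words in a 3′ UTR of 10311 bases, the first at position 69, KIF3B held 2, and KIF3C, KIF5C and KLC1 held 1 each. Without the holders, 2 transport kinesins rose in place of 7 of 14, and 2 cytoplasmic dyneins in place of 4 of 10. Fewer genes are then left in both roles, and whether the rises depend on the word was not tested.

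Markers of cell types other than hepatocytes were looked at beside these results. Of 5 immune markers 4 were in the table, with a summed level of 629 to 707 CPM after knockdown and 261 to 287 CPM in controls. Nearly all of it was LYZ, the lysozyme gene, at 618 to 696 CPM after knockdown and 249 to 275 CPM in controls, while PTPRC, the pan-leukocyte marker, was at or below 1.78 CPM in every library. CD14 fell, with means of 1.76 CPM after knockdown and 3.62 CPM in controls (0.485 times, log2 fold change -0.75 ± 0.13 SE, limma adjusted p = 8.30e-06). PTPRC and CD68 were not called. Of 6 stellate cell and fibroblast markers 4 were in the table, with a summed level of 313 to 322.5 CPM after knockdown and 168.5 to 178 CPM in controls. Of these 4, 3 were higher (75%) and 1 lower (25%), beside 25.7% and 26.5% of all tested genes. COL1A2, a collagen gene, was 277 to 289 CPM after knockdown and 133 to 137.5 CPM in controls, and PDGFRB, a growth factor receptor of these cells, fell to 0.722 times the control mean. Both endothelial markers in the table, PECAM1 and CDH5, stayed under 1 CPM. The part of these markers in the members' results was not tested. In bulk libraries, a change in the number of cells of a kind and a change of RNA per cell cannot be told apart.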

How the data were processed

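Poly(A)-selected, stranded mRNA libraries of Huh7 cells were sequenced, per the labels' protocols, 3 after SETD5 knockdown and 3 controls. Tools listed by the submitters' processing notes are STAR 2.5.1 and R 3.3.0, with the builds hg19 and mm10 and no roles. How reads were counted, and whether strand was used, is not given in the sources used here. From these the authors deposited 1 table of log2 values, log2(CPM + 1), for 14200 genes. CPM was computed as 2 to the power of the value minus 1. Of the values checked, which left out zeros and genes with high counts, 100% fell within 0.01 of a whole number of reads. CPM sums of the libraries lay at 0.9934 to 1.0043 times their nominal total.

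All 12865 genes that averaged 1 CPM or more were tested on the deposited log2 values with limma 3.58.1 in R 4.3.3 (two-sided, lmFit with group as the only term, eBayes with trend), with Benjamini-Hochberg adjustment over all of them and a threshold of 0.05. Errors are SE of the fit for fold changes and SD over 3 libraries otherwise. Reads per library of 14038447 to 17095417 limit the precision of low genes, which covers counting error only. Libraries of a group differed by a chi-square of 1.26 to 2.15 per gene and libraries of different groups by 20.6 to 25.3, and no pair was taken as 1 library. The members, roles and partner lists were chosen with earlier results of these data known. In each role, values are given for up to 4 called members with the largest change and up to 2 others with the highest level, and up to 3 called genes per partner list. Levels per transcript length used 1 GENCODE 29 transcript per gene, and no coordinates of hg19 are printed. The scripts were tested on simulated data. Alternatives were another pseudocount, other filters, centring, quantile normalization, no trend, a replicate block, voom on recovered reads, a test against 1.2-fold, members without GCACCT, and leaving out each library.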

Additional observations from a re-analysis of the deposited data

How the results depend on the processing

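Counts of members hardly moved with pseudocount, filter, centring, quantile normalization or voom, with 25 to 27 higher and 8 to 10 lower. Without the mean-variance trend 19 rose and 7 fell, and leaving out single libraries gave 21 to 27 higher and 8 to 9 lower. Of the 34 called members, 24 kept their call under all alternatives other than the test against 1.2-fold, 10 lost it under at least 1, and 6 of 27 uncalled members gained one. Against 1.2-fold, 5 of the 61 members rose (KIF2C, KIF3C, KIF5C, KIF3A and KIF13A) and 1 fell (KIF12). The same test called 1466 of all 12865 tested genes in either direction. By role, that test left mitotic kinesins 1 higher, transport kinesins 4 higher and 0 lower, other kinesins 0 higher and 1 lower, and cytoplasmic dyneins, axonemal dyneins and dynactins 0 in both directions. Partner genes then had 2 higher and 1 lower, where the full test called 41 and 16. Without the trend, mitotic kinesins had 4 higher, cytoplasmic dyneins 2 higher and 1 lower, axonemal dyneins 1 higher and dynactins 1 lower. Without members that hold GCACCT, transport kinesins had 2 higher, cytoplasmic dyneins 2 higher and dynactins 1 lower. Axonemal dyneins had 2 lower with no filter on level and 0 lower at a mean of at least 5 CPM. Leaving out single libraries gave mitotic kinesins 4 to 8 higher and 0 to 1 lower, axonemal dyneins 1 to 2 higher and dynactins 1 to 2 lower. The DYNC1I1 to DYNC1I2 difference, not separate between groups, ran from -0.24 to 0.041 across left-out libraries and turned positive without control library 3. The cause was not tested, apart from fewer genes where the filter or membership changed. Deviations of same-numbered libraries correlated weakly (-0.011, 0.054 and 0.042), beside -0.0596 to 0.0215 for libraries of different number. The labels do not say whether the numbers pair libraries, and correlations this small cannot decide it. With the replicate block 27 members rose and 9 fell. The planned negative-binomial tests of the recovered reads were not run.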
